A study of Rattus norvegicus with 2 samples.

Results

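Chromosome 17 of the rat was examined for the distribution of 8-oxoguanine (8-oxoG) in normal kidney. Its members are the array probes that lie on chromosome 17 of the rat assembly rn4, without the probes on randomly placed sequence of that chromosome. They number 8054 of the 235872 probes kept on the array, or 3.48% of the 231247 probes placed on chromosomes 1 to 20 and X. The chromosome was chosen by its agreement between rats: across fragments of 1 Mb, Pearson's r between the 2 arrays was 0.53 here and was the lowest of 21 chromosomes. The next in this order were chromosome 10 at 0.61 and chromosome 12 at 0.64. These values of r, and the levels they were computed from, selected the chromosome and are therefore given as a description, with no test of the chromosome against the others.

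The study used kidneys of 2 untreated male Wistar rats (the labels spell the strain Wister), killed at 5 weeks of age, which form 1 group of normal kidney. Genomic DNA was cut with a restriction enzyme and precipitated with the monoclonal 8-oxoG antibody N45.1, and after amplification the precipitated DNA (IP) was labelled with Cy5 and the input DNA without IP with Cy3, with 800 ng of DNA per labelling. Each rat contributed 1 Agilent Rat Genome CGH array, a DNA array designed for copy number work, here called replicate 1 and replicate 2. There is no control group and no dye swap, and since rat, precipitation and array change together, a difference between the replicates cannot be assigned to any 1 of them: they cannot be told apart.

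8-oxoG is the product of oxidation of guanine by reactive oxygen species. It can pair with adenine as well as cytosine, so that an unrepaired lesion may lead to a G-to-T transversion, and it is removed mainly by base excision repair that the glycosylase OGG1 starts. The kidney has a high oxygen consumption, since its tubules reabsorb solutes with energy from mitochondria. The whole organ was homogenised, so the profile is an average over its cell types. In RefSeq's annotation of a later rat assembly (GRCr8), chromosome 17 carries the phosphate transporter Slc34a1 and cubilin (Cubn), a receptor for filtered proteins in the proximal tubule, as well as 25 of 28 genes of the prolactin family and 39 of 74 histone genes. The scanner files give no gene names and positions on rn4 cannot be taken from the later assembly, so the profile below is described by position and not by gene.

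The 8-oxoG level of a probe is log2 of the IP intensity over the input intensity, set to 0 at the median of the array, so that a level above 0 means more 8-oxoG than the median probe and 0 does not mean that the lesion is absent. The 8054 probes, 60 bases long in the median, spanned 97.2 Mb with a median distance of 8586 bases between neighbouring starts. In 26 places neighbouring probes were more than 100 kb apart, and the longest interval without a probe start ran for 597551 bases, from 49488466 to 50086017. The median input intensity was 104 on replicate 1 and 82.7 on replicate 2, against 89.1 and 70.1 over all placed probes. Of the probes of chromosome 17, 81.1% had signals well above background in each channel of each array. This was the highest share among the 21 chromosomes, so dim probes were not more frequent here than elsewhere. Repeated spots of 31 probes showed an SD of 0.18 within replicate 1 and 0.26 within replicate 2.

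Chromosome 17 was on the low side of the array median in both rats. The mean level over its probes was -0.06 on replicate 1 and -0.16 on replicate 2, or -0.11 ± 0.07 (SD, n = 2), and its rank from the lowest was 4 among 21 chromosomes. Over all placed probes the mean was -0.01 and -0.10 in the same order, so most of the gap between the replicates is shared by the whole array. The medians over the probes of chromosome 17 were -0.05 and -0.07, closer to each other than the means. Averages of probes used below carry this offset between the means of the arrays. Single probes spread far more widely than the chromosome mean, with an SD of 0.92 on replicate 1 and 1.23 on replicate 2. Both arrays gave a level above 1 for 385 probes, and a level below -1 for 396 probes. These are 4.78% and 4.92% of the probes of the chromosome, beside 5.85% and 4.67% of all placed probes. Another 146 probes (1.81%, beside 1.97% of all placed probes) were beyond 1 in opposite directions on the arrays. Over single probes r between the arrays was 0.33 on chromosome 17 and 0.34 over all placed probes, and the sign was shared by 62.9% and 63.1%. At the level of single probes the chromosome thus ranked 7 from the lowest in agreement and lay close to the others.

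Along the chromosome, regions depleted in 8-oxoG were far more extended than rich ones. In the profile smoothed over 500 kb in both directions, depleted stretches took 69.2% of the length and rich stretches 27.8% when both arrays were averaged. The mean over all placed probes was also below 0, at -0.05. Shares of rich and depleted length were not computed for the other chromosomes, so they are not read as particular to chromosome 17. The rich share was 37.1% on replicate 1 and 18.5% on replicate 2, in the direction of the offset between the means of the arrays. Both smoothed levels were below 0 at 62.4% of the probes and above 0 at 17.1%. Replicate 1 was above 0 and replicate 2 below it at 18.7%, and the reverse held at 1.83%.

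**Figure D1:**
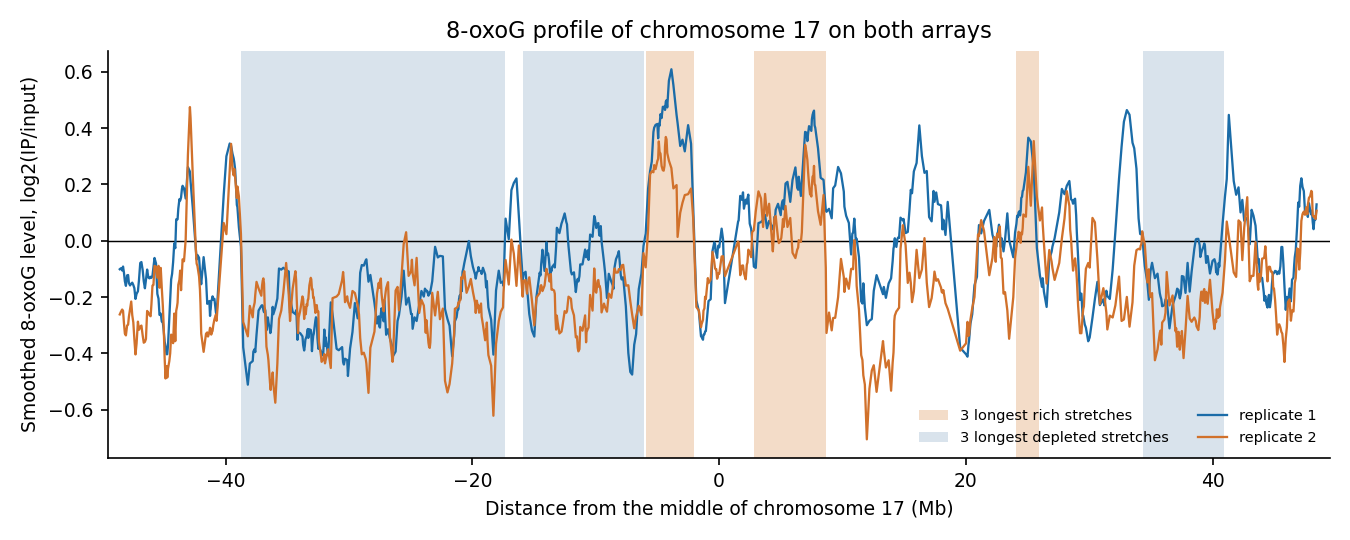
8-oxoG level of chromosome 17, smoothed over 500 kb in both directions and drawn at every 10th probe, as log2(IP/input) on the vertical axis against the distance from the middle of the chromosome in Mb, for replicate 1 (blue) and replicate 2 (orange). Shading marks the 3 longest rich stretches (orange) and the 3 longest depleted stretches (blue-grey) of the mean profile. Both curves stay low through the longest depleted stretch and rise together in the rich stretch whose means are 0.43 and 0.25.

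The longest depleted stretch ran from 9841055 to 31250193, over 21.4 Mb and 1858 probes. Its mean level was -0.25 on replicate 1 and -0.26 on replicate 2, and the smoothed curves were below 0 at 99.3% and 99.4% of its probes. This long stretch was low to nearly the same degree in both rats, although it was broken into pieces of at most 15.9 Mb on replicate 1 alone and 13.2 Mb on replicate 2 alone. Levels below -1 on both arrays were found for 121 of its probes (6.51%, beside 4.67% of all placed probes). Levels above 1 on both arrays were found for 40 (2.15%, beside 5.85%). Stretches are defined by the side of 0 of these same levels, so such shares describe a stretch and do not test it. The lowest point of the smoothed mean profile lay inside it, at 30270597, with -0.44 on replicate 1 and -0.61 on replicate 2.

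Second in length was a depleted stretch of 9.85 Mb from 32655852 to 42505858. It was shallower on replicate 1 (-0.09) than on replicate 2 (-0.21), and replicate 1 was below 0 at 75.6% of its 905 probes whereas replicate 2 was below 0 at all of them. The stretch that followed in length, 6.54 Mb from 82962918 to 89504796, had means of -0.13 and -0.25. In these 2 stretches replicate 2 was lower, while in the longest stretch the replicates had nearly equal means.

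The rich stretch with the highest mean level lay shortly after the second depleted stretch, from 42695242 to 46536485. Over its 3.84 Mb and 301 probes the mean level was 0.43 on replicate 1 and 0.25 on replicate 2, and the smoothed curves were above 0 at 100% of the probes on replicate 1 and 97% on replicate 2. The highest point of the smoothed mean profile was at 44362892, with 0.52 and 0.38. In this stretch both arrays exceeded 1 for 38 probes (12.6%) and fell under -1 for 5 (1.66%). This is the reverse of the long depleted stretch, and it follows in part from the way in which stretches are defined. Its input signal was also dimmer than that of the chromosome. The geometric mean intensity was 54.4 on replicate 1 and 40.0 on replicate 2, against 82.8 and 65.2 over chromosome 17. Averaged over both arrays, the level of this rich stretch was 0.34. It was 0.025 with normexp background correction, which compresses the ratios of dim probes, and 0.35 with only probes well above background. The longest depleted stretch had -0.26, and -0.097 with normexp. After removal of a trend on input brightness, described below, the rich stretch had 0.27. The part of input brightness in the level was not tested further.

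The fragments of 1 Mb show how abrupt the change was. Fragment 41 to 42 Mb had levels of -0.48 and -0.28 on replicates 1 and 2, and fragment 42 to 43 Mb had 0.04 and -0.05. The levels were then 0.38 and 0.26 from 43 to 44 Mb, 0.55 and 0.29 from 44 to 45 Mb, and 0.37 and 0.14 from 45 to 46 Mb. Beyond 46 Mb they returned to 0.07 and 0.07, and from 47 to 48 Mb to -0.31 and -0.21. Every step of this sequence had the same direction in both rats.

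The longest rich stretch was weaker. From 51407387 to 57232192, over 5.82 Mb and 480 probes, the mean was 0.22 on replicate 1 and 0.11 on replicate 2. Its highest fragment, 55 to 56 Mb, had 0.37 and 0.27. Rich stretch number 3 in length, 1.81 Mb from 72667773 to 74479000, had 0.21 and 0.12. In all 3 rich stretches replicate 1 was the higher array, in the direction of the offset between the arrays. The extent of the longest one rests on replicate 1, since no rich stretch was longer than 2.47 Mb on replicate 2 alone, against 7.53 Mb on replicate 1. With normexp background correction, which compresses the ratios of dim probes, the mean of the longest rich stretch was -0.029 and that of number 3 was -0.032, so their side of 0 depends on this choice.

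In intervals of 10 Mb, the lowest level was found from 10 to 20 Mb (-0.30 on replicate 1 and -0.28 on replicate 2) and the next from 20 to 30 Mb (-0.20 and -0.24). All 20 fragments of these 2 intervals were below 0 on both arrays. The highest interval was 50 to 60 Mb, with 0.17 and 0.02. There 6 of the 10 fragments had opposite signs, and 4 were above 0 on both arrays. The widest gap between replicates was in the interval 60 to 70 Mb, with -0.04 and -0.25.

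Among the 98 fragments of chromosome 17, both arrays were above 0 in 17 and below 0 in 57, while 24 had opposite signs. In 22 of these 24, replicate 1 was above 0 and replicate 2 below, again in the direction of the offset between the arrays. The smaller of the 2 values was within 0.1 of 0 in 15 of them, and in 9 both were further from 0 than that. Opposite signs made up 24.5% of the fragments, beside 18.1% on the other chromosomes. More fragments below than above 0 on both arrays were also found elsewhere. Chromosome 16 had 35 above and 43 below of 91 fragments, and chromosome 10 had 11 and 92 of 111. On chromosome 17 the share of fragments with the same sign was 75.5%, the lowest among the 21 chromosomes except for X (63.4%). When each array was centred on its own mean over the fragments of chromosome 17, an alternative added after seeing the data, the share was 80.6%.

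Each fragment was also tested against 0 with limma, fitted over all 2731 fragments of the genome (adjusted p under 0.05). On chromosome 17, 5 fragments (5.10%) were called above 0, where 20.9% of all fragments were, and 23 (23.5%) were called below 0, where 20.4% of all fragments were. Since the same levels chose the chromosome, nothing is read from these counts. Of the 23, 22 were below 0 on both arrays, and the other is the last fragment, described below, which holds 5 probes and has opposite signs on the arrays. Without centring of the arrays the split was 8 above and 19 below, beside 713 and 503 of all 2731 fragments. With 2 arrays limma pooled the spread completely over fragments, so the standard error was 0.105 (log2) for every fragment whatever its number of probes.

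All 5 fragments called above 0 are the 5 highest with at least 50 probes. Besides 3 neighbours from 43 to 46 Mb and the fragment 55 to 56 Mb they include 5 to 6 Mb, where the levels were 0.26 on replicate 1 and 0.28 on replicate 2. That fragment stood between depleted neighbours, with -0.03 and -0.36 before it and -0.11 and -0.17 after it. It was the highest point of the first 10 Mb, and the replicates differed there by only 0.02.

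The lowest fragments were 26 to 27 Mb (-0.30 on replicate 1 and -0.56 on replicate 2), 60 to 61 Mb (-0.28 and -0.57), 16 to 17 Mb (-0.41 and -0.43), 12 to 13 Mb (-0.28 and -0.55) and 41 to 42 Mb (-0.48 and -0.28). Their means lay between -0.43 and -0.38, so no order among them holds against the standard error. Of these 5, 3 lay inside the longest depleted stretch and 41 to 42 Mb at the end of the second, whereas 60 to 61 Mb stood outside the long stretches.

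Replicate 1 was the higher array in 69 of the 98 fragments, with a mean difference of 0.11, beside 0.10 over all fragments of the genome. The arrays differed by more than 0.25 in 22 fragments (22.4%, beside 21.7% on the other chromosomes), and replicate 1 was higher in 20 of these. Among fragments with at least 50 probes, the widest difference was at 62 to 63 Mb, where replicate 1 had -0.09 and replicate 2 had -0.54. At 64 to 65 Mb the levels were 0.28 and -0.11, at 57 to 58 Mb 0.11 and -0.27, and at 66 to 67 Mb 0.16 and -0.18. These 4 fragments lie within 10 Mb of each other. In the other direction the widest difference was at 78 to 79 Mb, with -0.36 and -0.08, followed by 18 to 19 Mb with -0.48 and -0.22. Wider than these was 81 to 82 Mb, with 0.43 and -0.23, but it held 46 probes and is named here only after its values were seen.

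The widest difference of all was in the last fragment of the chromosome, from 97 to 98 Mb, which held only 5 probes. Its level was 0.30 on replicate 1 and -0.98 on replicate 2. All 5 probes were higher on replicate 1, by 0.52 to 2.24. The probe starting at 97163612 had an input intensity of 83.7 and an IP intensity of 86.2 on replicate 1, and 77.7 and 17.5 on replicate 2. The probe starting at 97021908 had an IP intensity of 36.7 on replicate 1 and 7.56 on replicate 2, and was the only one of the 5 that missed the mark for signal well above background. The geometric mean input of the 5 probes was 63.8 and 48.3, while over the chromosome it was 82.8 and 65.2, so that the arrays stood in a similar proportion in the input channel. The neighbouring fragment from 96 to 97 Mb, with 126 probes, had 0.11 and 0.18.

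**Figure D2:**
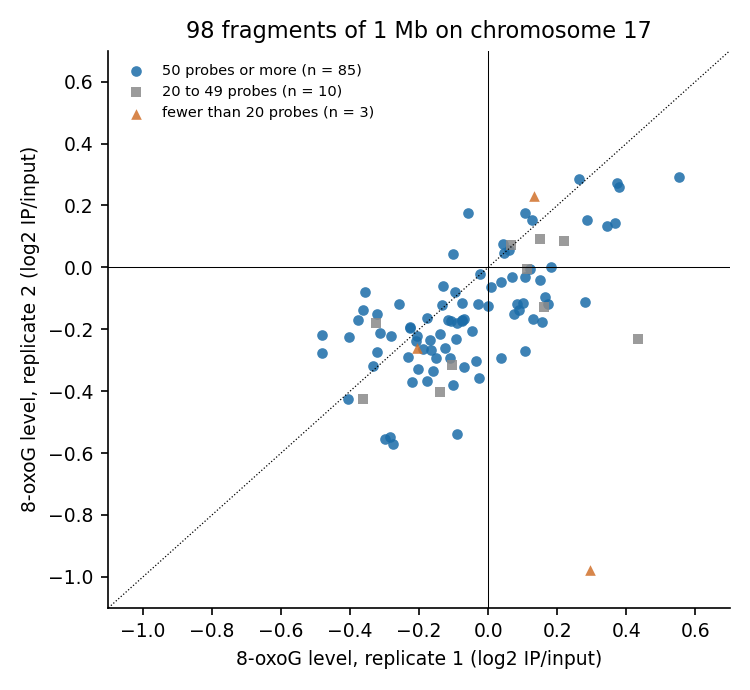
Level of each of the 98 fragments of 1 Mb on chromosome 17, replicate 2 against replicate 1, both as log2(IP/input), with the symbol giving the number of probes in the fragment. The dotted line marks equal levels. The fragment at 0.30 and -0.98, with 5 probes, lies far from all others, and most points lie below the dotted line because replicate 1 was higher in 69 fragments.

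This single fragment set the rank of the chromosome. Without it r was 0.66, whereas leaving out any other single fragment gave 0.50 to 0.56. With only the 95 fragments that held at least 20 probes r was 0.66, and the chromosome then ranked 3 from the lowest, after chromosome 10 (0.61) and chromosome 12 (0.66). Weighting the fragments by their number of probes gave 0.67, and a grid shifted by 500 kb, which moves the last probes into a fuller fragment, gave 0.69. The median of the other 20 chromosomes was 0.81 for all fragments and 0.81 with at least 20 probes. Agreement on chromosome 17 thus remained in the low range without the sparse fragments, although it was no longer the lowest. With normexp background correction and at least 20 probes it was 0.66, rank 7 from the lowest, and the median of the others was 0.70. The rank correlation over all 98 fragments, on which a single fragment weighs less, was 0.62 and ranked 3 from the lowest, and chromosome 10 was lowest at 0.43. Fragments of a chromosome share 2 arrays and adjacent positions, so these correlations describe the arrays only.

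**Figure D3:**
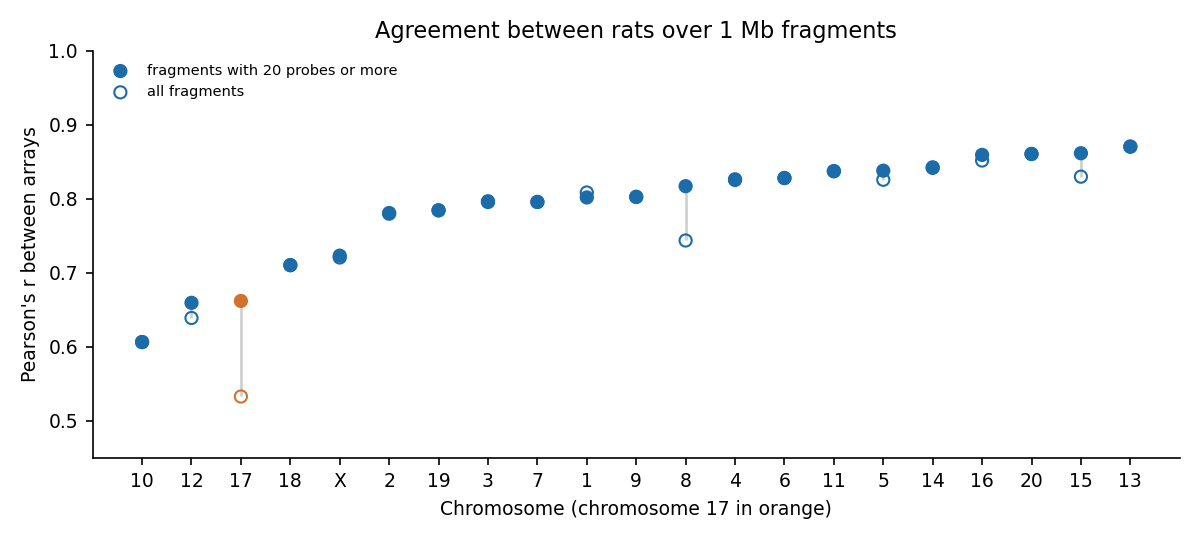
Pearson's r between replicate 1 and replicate 2 over fragments of 1 Mb, for each of the 21 chromosomes, in order of the value for fragments with 20 probes or more (filled circles), with the value for all fragments as open circles. The vertical axis starts above 0. Chromosome 17, in orange, moves from 0.53 to 0.66 and from rank 1 to rank 3 from the lowest.

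A correlation depends both on how far the arrays differ and on how much the fragments differ along the chromosome. With at least 20 probes per fragment, the SD of the difference between arrays was 0.167 on chromosome 17, rank 7 from the lowest, and the median of the other chromosomes was 0.172. Over all fragments it was 0.204, the highest except for chromosome 18 (0.207). The SD of the mean level over fragments with at least 20 probes was 0.183, rank 3 from the lowest after chromosome 12 (0.134) and chromosome 10 (0.167), and the median of the other chromosomes was 0.259. Away from the sparse fragments, chromosome 17 thus combined a difference between rats in the middle of the range with little contrast along its length. Chromosome 16, of similar size, had a difference of 0.162 and a contrast of 0.285, and its r was 0.86.

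**Figure D4:**
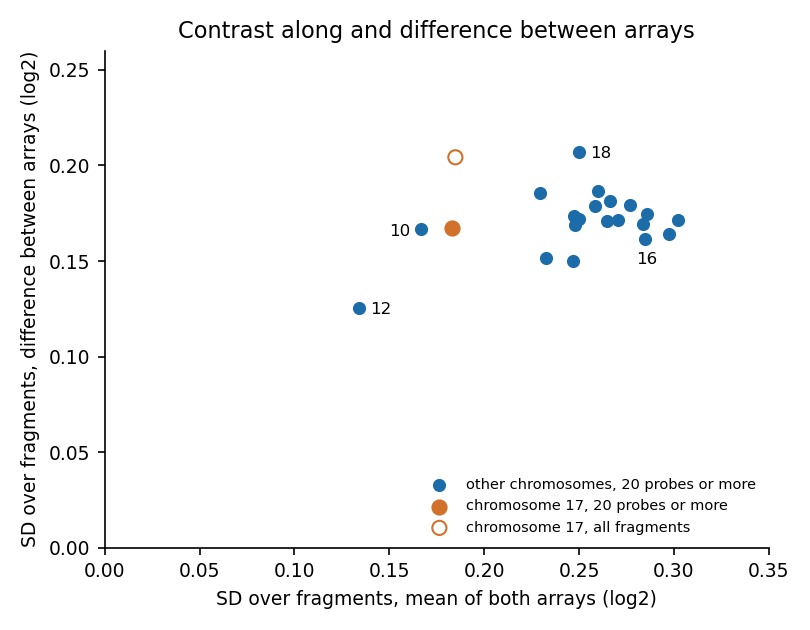
SD over 1 Mb fragments of the difference between arrays (vertical axis) against the SD of the mean of both arrays (horizontal axis), both in log2 units, for chromosome 17 (orange) and the other 20 chromosomes (blue; 10, 12, 16 and 18 are numbered), with the value for all fragments of chromosome 17 as an open circle. With at least 20 probes chromosome 17 lies at 0.183 and 0.167, left of all other chromosomes but 10 and 12 and at a middle height.

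The input channel agreed more closely between arrays than the IP channel, as on the other chromosomes. Over all 98 fragments, r between arrays was 0.99 for the input signal and 0.80 for the IP signal. The latter was the lowest of the 21 chromosomes, just below chromosome 8 (0.81) and chromosome 18 (0.81), and the median of the others was 0.90. The value for the input signal ranked 2 from the lowest. Both values include the sparse last fragment. Over single probes r for the IP signal was 0.82 on chromosome 17, rank 8 from the lowest, and 0.82 over all placed probes. When the probes of each fragment with at least 20 probes were split alternately into 2 sets, r between the sets was 0.56 within replicate 1 and 0.38 within replicate 2, and r between a set on one array and a set on the other was 0.39. The probes of a fragment on replicate 2 thus resembled each other no more than they resembled those on replicate 1. The medians of the other chromosomes were 0.75, 0.53 and 0.61 in the same order, and chromosome 10 had 0.62, 0.37 and 0.38. A value within replicate 2 no higher than that between arrays was thus not particular to chromosome 17.

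Agreement also depended on the size of the fragments. On chromosome 17 r was 0.42 at 50 kb, 0.49 at 200 kb, 0.59 at 500 kb, 0.53 at 1 Mb, 0.73 at 2 Mb and 0.79 at 5 Mb, the last size being added after seeing the data. The rank from the lowest was 12 at 50 kb, 4 at 200 kb, 3 at 500 kb, 3 at 2 Mb and 2 at 5 Mb. The lowest place was therefore taken at 1 Mb alone among these sizes. At 50 kb the chromosome was at the median of the others (0.42), and at larger sizes it fell behind it, with 0.73 against 0.87 at 2 Mb.

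**Figure D5:**
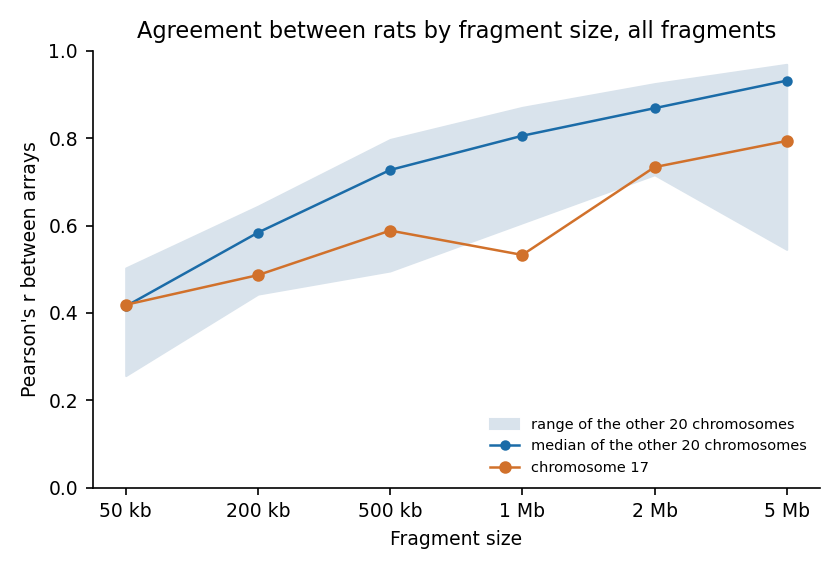
Pearson's r between replicate 1 and replicate 2 on chromosome 17 (orange) by fragment size, over all fragments, with the median (blue line) and the range (shaded) of the other 20 chromosomes. The value of chromosome 17 meets the median at 50 kb (0.42), leaves the range at 1 Mb (0.53) and lies within it at the other sizes.

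Neighbouring fragments of chromosome 17 also resembled each other little between arrays. The r between a fragment on one array and the next fragment on the other array was 0.33 on chromosome 17 and that for the second neighbour was 0.12, both the lowest of the 21 chromosomes, with medians of 0.55 and 0.36 on the others. Chromosome 10 was close in both, at 0.33 and 0.15. The values of chromosome 17 include the sparse last fragment and were not computed without it.

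The level on chromosome 17 was hardly related to how densely it was covered by probes. Over its 98 fragments, the rank correlation of the mean level with the number of probes was -0.09, the closest to 0 of the 21 chromosomes, where the median of the others was -0.39. With the mean input brightness of a fragment it was -0.44 on replicate 1 and -0.38 on replicate 2, and the medians of the others were -0.75 and -0.70. Such weak values were not particular to chromosome 17: chromosome 10 had -0.30 and -0.43, and chromosome 12 had 0.06 and -0.20. The level and the input signal share the input intensity, which enters the level as its denominator. When a trend of the level on input brightness was removed from each array, all 26 named stretches and fragments kept their sign and 21 of them moved towards 0, and r over all fragments was 0.47.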

How the data were processed

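The members, regions and alternatives were chosen with earlier results of these data known. From 2 arrays, the deposited scanner files give processed intensity per channel (Agilent Feature Extraction 10.5.1.1, background subtracted, spatially detrended and lowess dye-normalized) and a log10 ratio, and the authors also deposited a table of log2 ratios. That table equals log2 of the processed ratio within 6.2e-15 and is not centred. Levels were computed as log2 of processed red (IP) over green (input), centred on each array's median, with no loess or quantile step. Controls and outlier-flagged spots were removed (9 flagged on chromosome 17), and repeated spots were averaged per probe. The number of arrays limits the precision. Fragments of 1 Mb were tested against 0 with limma 3.58.1 (R 4.3.3, lmFit and eBayes, two-sided, Benjamini-Hochberg over 2731 fragments, adjusted p under 0.05). The fit was tested on simulated data with an equal spread for all fragments, which does not cover fragments with few probes. Stretches are consecutive probes on one side of 0 after averaging over 500 kb in both directions. Other steps used Python 3.11.15, numpy 2.4.6, pandas 2.3.3, scipy 1.17.1, statsmodels 0.14.6 and matplotlib 3.10.9.

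The text names the 3 longest stretches on each side of 0, the 5 highest and 5 lowest fragments, and the fragments with the widest difference between arrays in each direction, all with at least 50 probes. Neighbours of these, the last fragment and 81 to 82 Mb were added after their values were seen. The rn4 coordinates come from the deposited files. Planned results on genes and on gene density were not analysed here, since no rn4 annotation was used, and no sequence is shown for that reason. Alternatives covered the ratio, centring, normexp (offset of 50, on median signals), filters, grid, fragment size and each replicate alone.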

Additional observations from a re-analysis of the deposited data

How the results depend on the processing

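The correlation between rats over fragments of chromosome 17 was 0.53 and rose to 0.66 with normexp background correction, 0.69 on a grid shifted by 500 kb, 0.66 with at least 20 probes per fragment and 0.73 in fragments of 2 Mb. Alternatives added after seeing the data gave 0.66 with at least 10 probes, 0.68 with at least 50, 0.66 without the last fragment and 0.67 with fragments weighted by probes. With at least 20 probes, r was 0.66 without centring, 0.66 with the table of the authors, 0.66 with normexp and 0.68 before dye normalization, where chromosome 17 was again the lowest of the 21. With normexp chromosome 17 ranked 6 from the lowest over all fragments and 7 with at least 20 probes, where the median of the others was 0.70. The share of fragments with the same sign was 75.5%, and it was 88.8% with normexp and 64.1% in fragments of 50 kb. The SD of the mean over fragments, 0.185, was 0.0473 with normexp, 0.549 at 50 kb, 0.315 at 200 kb, 0.226 at 500 kb and 0.159 at 2 Mb, and without either replicate it was 0.206 to 0.217. The SD of the difference, 0.204, was 0.0562 with normexp, 0.176 with medians over probes, 0.163 on the shifted grid, 0.167 with at least 20 probes, 0.715 at 50 kb, 0.371 at 200 kb, 0.130 at 2 Mb and 0.167 without the last fragment. Fragments called above 0 by limma numbered 5, and 8 without centring or with the table of the authors, 2 after removal of the brightness trend, 1 in a fit on chromosome 17 alone and 0 with normexp (0 also at an unadjusted p under 0.05). Fragments called below 0 numbered 23, and 7 with normexp. At an unadjusted p under 0.05 in limma the count below 0 was 35, and 37 with normexp. Fragments called below 0 at the adjusted p numbered 15 with only probes well above background and 14 with medians. They numbered 8 when a level beyond 0.25 on both arrays was asked for and 6 in the fit on chromosome 17 alone. Calls above 0 over all fragments of the genome changed as well, from 572 to 713 without centring, 355 after removal of the trend and 7 with normexp. Calls below 0 over all fragments went from 557 to 99 with normexp and 427 with only probes well above background. The mean level of the chromosome, -0.11, was between -0.16 and -0.06 without either replicate and stayed within the SD between arrays under the other settings run. With normexp the longest rich stretch had -0.029 and rich stretch number 3 in length had -0.032, both above 0 otherwise. Rich stretch number 2 in length, 0.34 in the main setting, had 0.025 with normexp. For the cases above the cause was not tested, apart from fewer fragments or probes entering where a minimum was set. Of 208 values of named stretches and fragments under the settings on the ratio, 170 stayed within the SD between arrays. These settings include the removal of the brightness trend, which was added for these regions after seeing the data. The SD is wide by selection in fragments named for a wide difference between arrays. The table of the authors repeats the values without centring, so the count is a description only. The sign changed in 9 of the 208, the 2 for rich stretches given above and 7 for fragments that limma did not call (51 to 52, 57 to 58, 64 to 65 and 66 to 67 Mb). No paired analysis was possible because all samples form a single group. On single arrays the longest rich stretch, 5.82 Mb, was 2.47 to 7.53 Mb long and the longest depleted stretch, 21.4 Mb, was 13.2 to 15.9 Mb long. The limma calls without each replicate were not run, since 1 array leaves no residual degrees of freedom, and planned results on genes were not analysed here.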

Other observations

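The 36 probes on randomly placed sequence of chromosome 17, which enter no result above, had a mean level of -0.15 on replicate 1 and 0.05 on replicate 2.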
